A study of Mus musculus with 18 samples.

Results

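The clustered protocadherin genes encode cadherin-type adhesion proteins of the neuronal surface and lie side by side in the alpha, beta and gamma clusters. They were taken as the rows of the count table with the biotype protein-coding and a name of Pcdha, Pcdhac, Pcdhb, Pcdhga, Pcdhgb or Pcdhgc followed by a number. That gave 56 of the 55487 genes in the table, 13 in the alpha cluster, 22 in the beta cluster and 21 in the gamma cluster.

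In the alpha and gamma clusters each gene has its own promoter and a large variable exon that encodes the extracellular and transmembrane parts, and this exon is spliced to constant exons that all genes of the cluster share. The beta genes have no constant exons. A neuron opens a small, largely random set of the promoters, through CTCF and cohesin looping to distant enhancers and through DNA methylation, whereas the C-type genes at the end of the alpha and gamma clusters are used in a more regular way. The proteins bind identical proteins on other membranes and so let a neuron tell its own branches from those of other cells. In the mouse retina the gamma protocadherins are known for the self-avoidance of starburst amacrine cell dendrites and for the survival of retinal interneurons and ganglion cells.

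RNA was sequenced from cells of dissociated mouse retina that had been sorted for the myeloid surface protein CD11b, with dead cells excluded by DAPI. The CD11b-negative sort holds the non-microglial retina (called retina here) and the CD11b-positive sort holds the microglia, the resident macrophages of the retina. Both sorts were made from Bmal1-mg/-mg mice (KO), in which Bmal1, a transcription factor of the circadian clock, was to be removed from microglia, and from Bmal1f/f mice (WT), which carry the floxed alleles alone. The groups were 5 KO retina, 4 WT retina, 5 KO microglia and 4 WT microglia libraries. The line that drives the deletion, the ages, the times of day and whether the numbered replicates were single animals are not given in the sources used here, so the p-values measure only the spread between these samples. The libraries were made by amplifying cDNA from very little RNA, so a count is not an independent molecule, and the intervals given below cover counting error only.

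The libraries held between 32277156 and 47563119 counts in genes. The number of genes with a count was 18761 to 19713 in KO retina, 16510 to 18715 in WT retina, 17343 to 18438 in KO microglia and 18654 to 19363 in WT microglia, so that KO retina lay above WT retina with no overlap. Arntl, the gene that encodes Bmal1, measured 2.10 to 24.1 CPM (counts scaled to the size of the library) in KO microglia and 9.89 to 26.9 CPM in WT microglia, and its difference did not pass the test (edgeR, log2 change -0.44, adjusted p 0.999). Counts over a whole gene do not show whether the floxed exons are present. The microglia markers summed to 8.15 to 18.1 CPM in KO retina and 14.1 to 25.4 CPM in WT retina, against at least 63966 CPM in every microglia library. The rod markers summed to 6386 to 14429.5 CPM in KO microglia and 8892 to 12753 CPM in WT microglia, so the microglia sort also held photoreceptor RNA. The library numbered 1 in each group had 0 CPM over the Y-linked genes, and the others had 43.4 to 113 CPM.

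All members lie on the plus strand of mouse chromosome 18 in GRCm38. By the GENCODE M21 annotation the alpha genes span bases 36930184 to 37187661, the beta genes bases 37264938 to 37524479 and the gamma genes bases 37661793 to 37841873. All 13 alpha genes share exon bases with a neighbour (median 2860 bases), as do all 21 gamma genes (median 2119 bases), whereas 2 of the 22 beta genes do. Levels are therefore compared between genes per kilobase of exon that belongs to a single gene. How reads in shared exons were assigned is not given in the sources used here, so the split between members of a cluster is uncertain.

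The family was read in an all-or-none way in single libraries. Of the 1008 values that 56 genes give in 18 libraries, 378 were 0, 156 were 1 to 9 counts, 11 were 10 to 19 counts, 72 were 20 to 99 counts and 391 were 100 counts or more. A member therefore either had hardly any reads in a library or had many, and 20 counts, which sits in the gap, is used below as the mark of a gene that was read. That mark was chosen after the counts had been seen. Members were at 0 in 10% of the KO retina values, 33% of the WT retina values, 62.5% of the KO microglia values and 45.1% of the WT microglia values. Over all genes tested, which had passed a filter on counts, the shares at 0 were 3.18%, 9.17%, 6.64% and 3.41% in that order of groups. The member shares cover all 56 members, tested or not, so they are not directly comparable with those of the filtered genes.

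**Figure D1:**
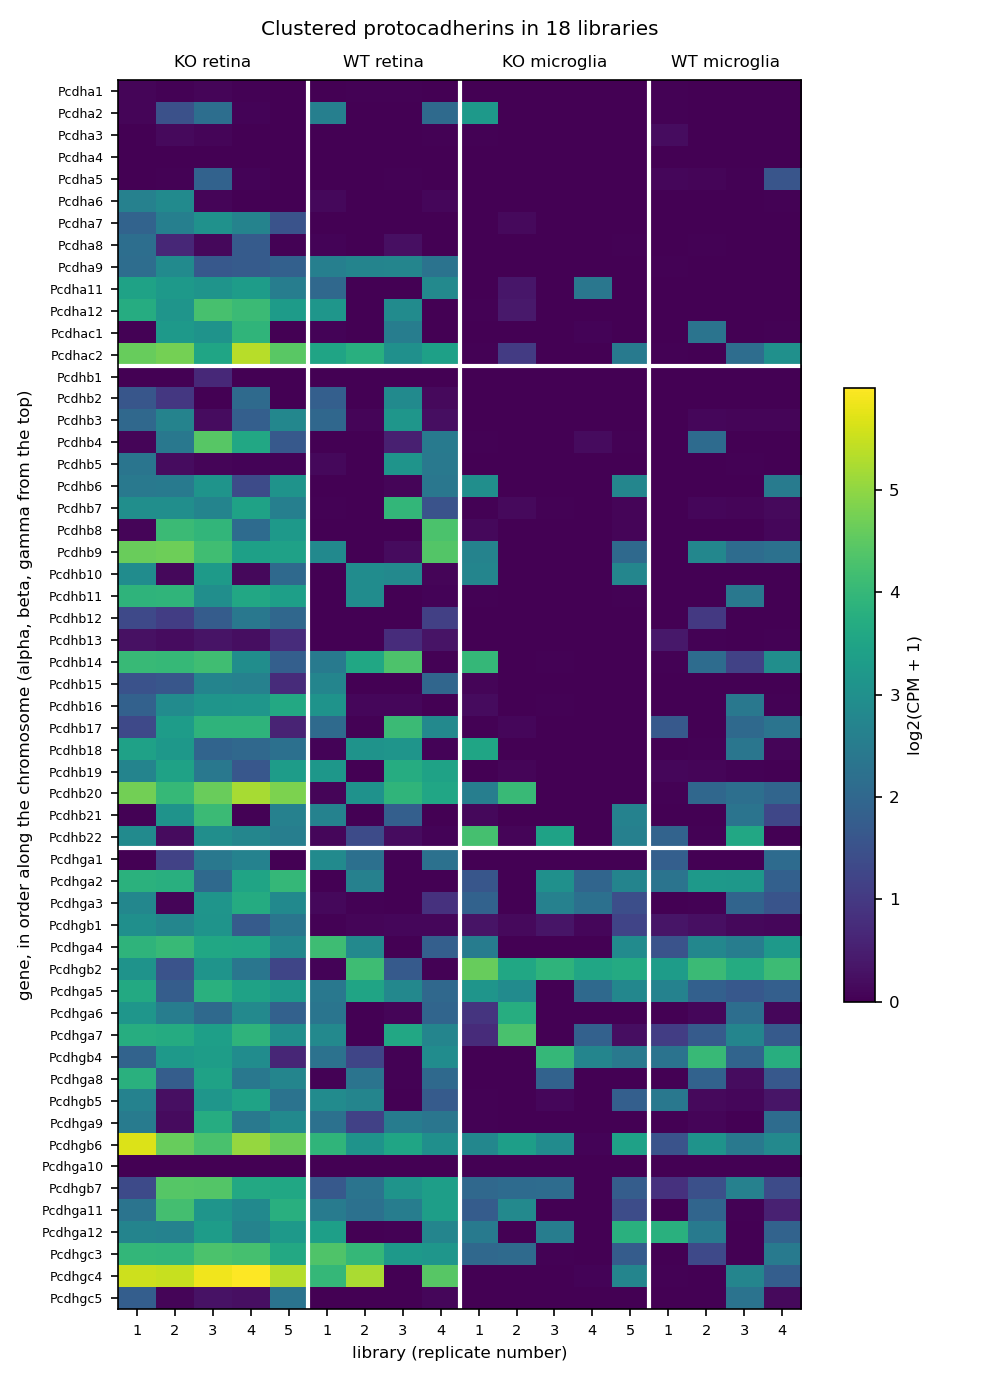
Level of each of the 56 members (rows, in chromosomal order, white lines between the alpha, beta and gamma clusters) in each of the 18 libraries (columns, by group), as log2(CPM + 1) on the colour scale. Adjacent libraries of a group differ in which members are dark, and the KO retina columns hold the fewest dark cells.

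Which members were read differed between libraries of the same group. In KO retina 32 members had at least 20 counts in all 5 libraries, 20 in some of them and 4 in none. In WT retina 8 members were read in all 4 libraries, 37 in some and 11 in none. In KO microglia a single member, Pcdhgb2, was read in all 5 libraries, 27 were read in some and 28 in none. In WT microglia 8 members were read in all 4 libraries, 26 in some and 22 in none. No member was read in all 18 libraries. Where a member was read, its level had a median of 7.28 CPM in KO retina, 6.07 CPM in WT retina, 5.36 CPM in KO microglia and 3.54 CPM in WT microglia.

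Pcdhga10 and Pcdha4 had 0 counts in all 18 libraries. Pcdhga10 has no exon base of its own in the annotation, with 2613 of its bases under the opposite-strand gene Gm26672, and Pcdha4 has 404 such bases out of 5768, with 2410 under Gm42416. Their zeros stand beside little or no exon sequence of their own. Pcdha1 and Pcdha3 never passed 20 counts, with at most 2 and 6 in a library, although they have 2489 and 2472 exon bases of their own.

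KO retina had the highest levels of the family in all 3 clusters. The members with at least 20 counts numbered 43, 42, 45, 43 and 43 in the KO retina libraries, against 28, 22, 24 and 31 in the WT retina libraries. The microglia libraries had 20, 10, 9, 7 and 20 in KO and 13, 18, 22 and 23 in WT. Summed over the family, the level was 423 ± 55.8 CPM in KO retina (SD, n = 5), 193 ± 9.51 CPM in WT retina (n = 4), 86.0 ± 38.5 CPM in KO microglia (n = 5) and 89.2 ± 24.4 CPM in WT microglia (n = 4). The 5 KO retina libraries, at 335 to 478 CPM, lay above the 4 WT retina libraries, at 180 to 203 CPM, while the microglia groups overlapped, at 33.1 to 136 CPM in KO and 53.8 to 107 CPM in WT. The sums are descriptions and were not tested.

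**Figure D2:**
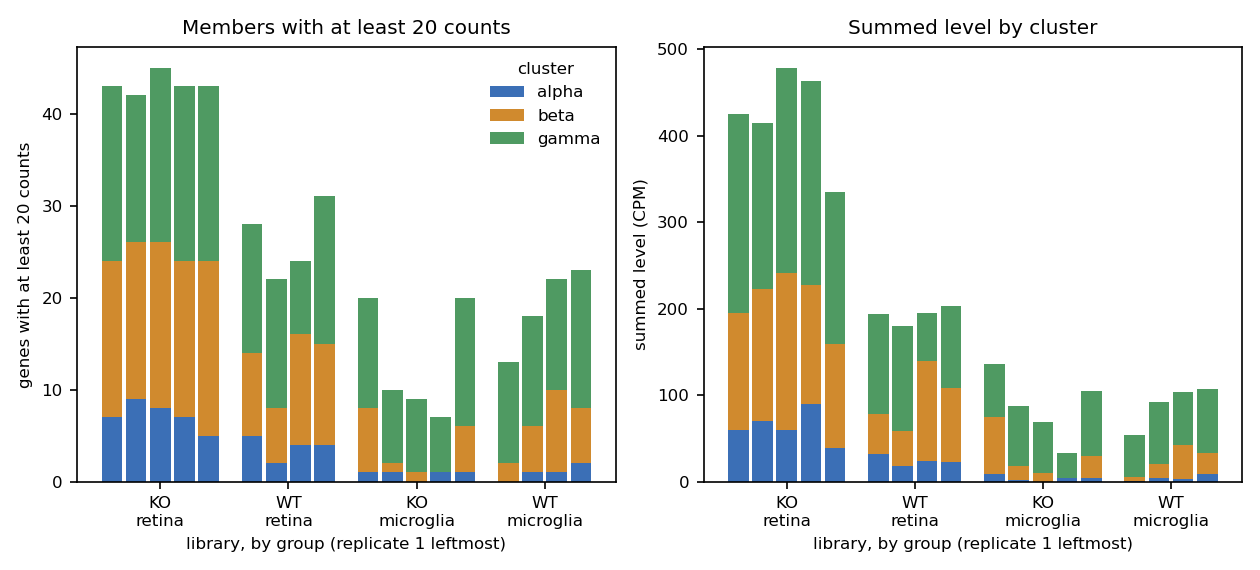
Number of members with at least 20 counts (left) and summed level in CPM (right) in each library, one bar per library, stacked by alpha, beta and gamma cluster. KO retina bars reach 42 to 45 members and 335 to 478 CPM, above WT retina bars of 22 to 31 members and 180 to 203 CPM, and microglia bars reach 7 to 23 members and 33.1 to 136 CPM, with gamma the largest part in all but KO microglia library 1.

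The alpha cluster was the smallest part. It summed to 63.8 ± 18.3 CPM in KO retina and 24.3 ± 5.48 CPM in WT retina, a ratio of 2.62, and to 3.77 ± 3.16 CPM in KO microglia and 4.23 ± 3.67 CPM in WT microglia (SD, n = 5, 4, 5 and 4). The WT microglia mean was 2.59 CPM without library 4. Use of the cluster was uneven along the chromosome. Of the 54 values of Pcdha1 to Pcdha6 in retina libraries, 7 (13%) were at least 20 counts, against 44 (69.8%) of the 63 values of Pcdha7 to Pcdhac2. In a single microglia library hardly more than 1 alpha gene was read, and it was not always the same gene. Pcdha2 held 99.1% of the alpha level in KO microglia library 1, Pcdha11 held 99.2% in KO library 4 and Pcdhac1 held 98.1% in WT library 2. The C-type gene Pcdhac2 recurred, with 59.4% and 99.4% in KO libraries 2 and 5 and 99.3% and 77.6% in WT libraries 3 and 4.

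The beta cluster summed to 145 ± 23.4 CPM in KO retina and 71.8 ± 35.3 CPM in WT retina, a ratio of 2.02. The microglia had 23.6 ± 25.7 CPM in KO and 21.2 ± 14.1 CPM in WT, and the KO mean was 12.9 CPM without library 1. The number of beta genes read was 17 to 19 of 22 in KO retina, 6 to 12 in WT retina, 0 to 7 in KO microglia and 2 to 9 in WT microglia. Use along the cluster was more even than in alpha, with 56.6% of the retina values of Pcdhb1 to Pcdhb11 and 70.7% of those of Pcdhb12 to Pcdhb22 at 20 counts or more. Pcdhb1, at the 5′ end, had reads in a single library (24 counts in KO retina library 3).

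The gamma cluster was the largest part by group mean, and more so in the microglia. It summed to 214 ± 27.9 CPM in KO retina and 96.8 ± 29.8 CPM in WT retina, a ratio of 2.21, and to 58.6 ± 17.9 CPM in KO microglia and 63.7 ± 11.8 CPM in WT microglia. Beta was larger than gamma in WT retina library 3 (115.7 against 55.5 CPM) and in KO microglia library 1 (66.6 against 61.1 CPM). Gamma made up 50.7% ± 2.90 of the family level in KO retina and 50.5% ± 17 in WT retina, against 73.7% ± 17.2 in KO microglia and 73.8% ± 12.9 in WT microglia. Within it the gamma-B genes summed to 63.1 CPM in KO retina and 26.9 CPM in WT retina, and to 28.7 CPM in KO microglia and 30.6 CPM in WT microglia, so that in WT mice the retina and the microglia differed by less than the SD in either group (6.19 and 9.88 CPM). The 5 C-type genes of the alpha and gamma clusters summed to 96.8 and 41.9 CPM in KO and WT retina but to 3.98 and 8.18 CPM in KO and WT microglia.

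In WT retina levels per kilobase of own exon were highest in each cluster for a few genes, among them the C-type genes Pcdhgc3, Pcdhgc4 and Pcdhac2, while the C-type genes Pcdhac1 and Pcdhgc5 were low. Among the gamma genes of WT retina Pcdhgc3 stood at 6.90 ± 3.01 CPM per kilobase, Pcdhgc4 at 5.2 ± 4.36 and Pcdhga11 at 4.48 ± 1.97 (SD, n = 4), and these 3 do not differ beyond their spread. Their order depends on the length used. Per kilobase of all exon bases Pcdhgc4 stood at 3.23 and Pcdhgc3 at 2.29 CPM, and Pcdhga11 was not among the 3 highest. Among the alpha genes Pcdhac2 stood at 3.30 ± 0.78, Pcdha9 at 2.03 ± 0.32 and Pcdha12 at 1.85 ± 2.16 CPM per kilobase. Among the beta genes Pcdhb20 stood at 2.26 ± 1.69, Pcdhb9 at 2.14 ± 3.06 and Pcdhb17 at 1.36 ± 1.48 CPM per kilobase, again within their spread. In KO retina the order was led by Pcdhgc4 at 14.3 CPM per kilobase, Pcdhgb6 at 11.5, Pcdhgc3 at 8.45 and Pcdhac2 at 7.99. Across the 55 members with own exon bases, the levels per kilobase in KO and WT retina had a Spearman correlation of 0.67, and those in KO and WT microglia 0.69. Those between retina and microglia were 0.65 in KO and 0.50 in WT. These correlations are descriptions over genes that share libraries and exons.

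Pcdhgc4, a C-type gamma gene needed in mice for the survival of neurons, was the highest member in KO retina with 45.7, 44.3, 57.04, 62.9 and 39.1 CPM, against 14.8, 36.7, 0 and 20.8 CPM in WT retina. Each KO library lay above each WT library, but WT retina library 3 had no read at all and the other 3 spanned 14.8 to 36.7 CPM. The difference did not pass the test (log2 change 1.42 ± 1.05 SE, edgeR adjusted p 0.65). Pcdhgc3, which promotes dendrite branching in mouse cortical neurons, had 14.7, 14.5, 18.7, 17.7 and 11.3 CPM in KO retina and 19.2, 14.97, 8.30 and 7.84 CPM in WT retina. The ranges overlap, with a log2 change of 0.25 ± 0.35. Pcdhac2, which acts in the tiling of serotonergic axons in mice, had 23.3, 25.9, 10.6, 40.04 and 21.1 CPM in KO retina and 10.4, 12.8, 7.08 and 9.70 CPM in WT retina. Of its 5 KO libraries 4 lay above all WT libraries, and the log2 change of 1.23 ± 0.38 did not pass (adjusted p 0.153). Pcdhac1 was read in KO libraries 2, 3 and 4, at 8.41, 7.49 and 14.1 CPM, and in WT library 3 at 4.82 CPM, with 0 to 2 counts in the other retina libraries. Pcdhgc5 was read in KO retina libraries 1 and 5, with 96 and 170 counts, and in no WT retina library, where it had 0, 0, 0 and 4 counts, and it was too low to be tested there.

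Retina of KO and WT mice differed past the threshold in 2 members, both higher in KO. The comparison asks whether removal of Bmal1 from microglia goes with a change in the other retinal cells. With edgeR's quasi-likelihood test over all genes and Benjamini-Hochberg adjustment, 46 members had enough counts to be tested (7 alpha, 20 beta and 19 gamma), of which 2 were higher and none lower at an adjusted p under 0.05. That is 4.35% of the members tested, where 1.66% of all 15332 genes tested were called (1.34% higher). Both called members passed the count filter through KO retina, the group where they were high. The 4.35% therefore describes the tested members and not the family. Beyond those 2, 4 members had an unadjusted p under 0.05. In bulk RNA, fewer cells of a type and less RNA per cell cannot be told apart.

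Pcdha7, an alpha gene of the randomly chosen kind, had 107, 234, 280, 227 and 81 counts in the 5 KO retina libraries, against 0 in each of the 4 WT retina libraries. Its level in KO was 1.90 to 7.13 CPM. It was read in every KO retina library and in no WT one, and its level was at least 258-fold higher in KO, with the WT group set to a floor of 3 counts in all (adjusted p 0.0135). In the microglia it had 4 counts in KO library 2 and 0 in the other 8 libraries.

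Pcdhgb1, a gamma-B gene, had 270, 268, 301, 97 and 173 counts in KO retina, against 1, 2, 3 and 4 counts in WT retina. All KO libraries lay far above all WT libraries, with a log2 change of 6.40 ± 0.78 (SE, adjusted p 0.0135). In the microglia it had 10, 4, 10, 2 and 51 counts in KO and 11, 7, 4 and 3 in WT, so reads of this gene were found in all 18 libraries but at 20 counts or more in 6. Neither call held when the rod marker level or the count of detected genes was added to the model, under which 0 and 2 of all genes were called. The rod marker sums and the count of detected genes did not overlap between KO and WT retina, so these fits cannot tell genotype from either term. The log2 change of Pcdhgb1 was then 6.48 (adjusted p 0.667) and 6.71 (adjusted p 0.249), and that of Pcdha7 8.15 (adjusted p 0.586) and 9.72 (adjusted p 0.288), where the values of Pcdha7 depend on the prior count. Both held when any of the 9 libraries was left out, and 4 members passed without WT retina library 2 (Pcdhb11 and Pcdhga2 as well) or without WT retina library 4 (Pcdhb6 and Pcdhb12 as well).

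**Figure D3:**
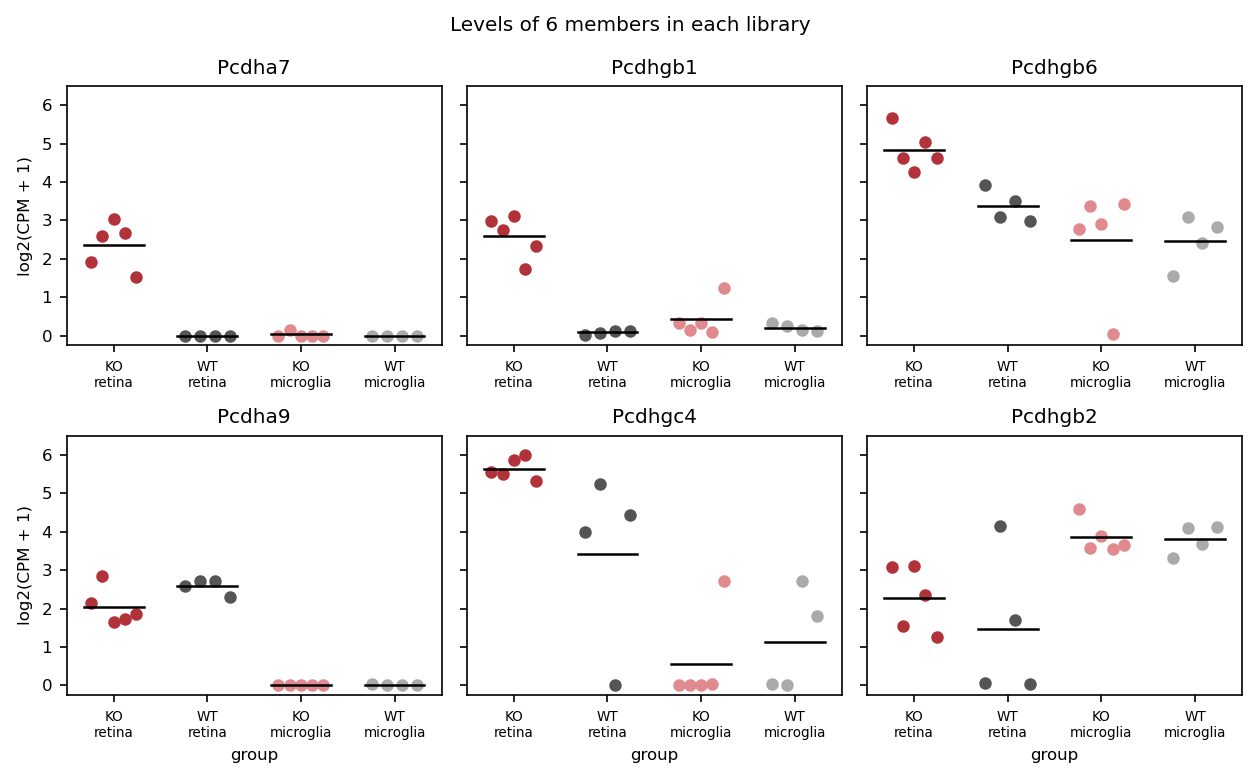
Level of 6 members in each library as log2(CPM + 1), 1 point per library and a line at the group mean of these log values, for KO and WT retina and KO and WT microglia. Pcdha7 and Pcdhgb1 are near 0 outside KO retina, except for Pcdhgb1 at 1.35 CPM in KO microglia library 5, Pcdha9 is read in all 9 retina libraries and in no microglia library, and Pcdhgb2 is read in all 9 microglia libraries.

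Pcdhgb6, the gamma-B gene with the highest level in KO retina, had 50.2, 23.5, 18.2, 32.03 and 23.6 CPM in KO retina and 14.2, 7.44, 10.4 and 6.96 CPM in WT retina. All KO libraries lay above all WT libraries, and its log2 change of 1.56 ± 0.38 (SE) missed the threshold (adjusted p 0.0808). In the authors' deposited table it was past the threshold, with a log2 change of 1.55 and an adjusted p of 0.0199. That table lists 45 members in retina, 39 of them with a positive log2 change, and 3 with an adjusted p under 0.05, namely Pcdha7, Pcdhgb1 and Pcdhgb6.

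The other members were not called, and most had fitted changes above 0. Of the 46 tested, 40 had a positive log2 change (5 of 7 alpha, 18 of 20 beta, 17 of 19 gamma) and the median was 0.86, where the median of all genes was 0.003. A member could be tested because a group with reads carried it past the filter, so this describes the tested members and not the family. In 6 of the 46 (13%) the KO and WT ranges did not overlap, all with KO higher, beside 8.71% of all genes (6.02% with KO higher). These were Pcdha7, Pcdhb11, Pcdhb20, Pcdhgb1, Pcdhgb6 and Pcdhgc4.

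Several members that were not called were read in some WT libraries and not in others. Pcdhb20, the beta gene with the highest level per kilobase in both retina groups, had 25.4, 15.2, 23.8, 35.8 and 27.4 CPM in KO and 0.0574, 7.30, 14.2 and 10.7 CPM in WT retina, where library 1 held 3 counts (log2 change 1.63 ± 0.95, adjusted p 0.528). Pcdhb11 was read in all KO libraries, at 6.77 to 14.2 CPM, and in WT library 2 alone, at 6.55 CPM (log2 change 2.73 ± 1.79, adjusted p 0.591). Pcdhga2 was read in all KO libraries, at 3.13 to 14.8 CPM, and in WT library 2 alone, at 5.23 CPM (log2 change 3.03 ± 1.94, adjusted p 0.571). The single WT library that read Pcdhga2 was thus within the KO range. The WT libraries that read Pcdhb11 or Pcdhb20 were below it, though the highest were close, at 6.55 against 6.77 CPM and 14.2 against 15.2 CPM. Pcdha9, by contrast, was read in all 9 retina libraries, with 3.40, 6.26, 2.16, 2.31 and 2.60 CPM in KO and 5.03, 5.57, 5.62 and 3.90 CPM in WT. Its ranges overlapped and its log2 change was -0.62 ± 0.49 (adjusted p 0.68).

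**Figure D4:**
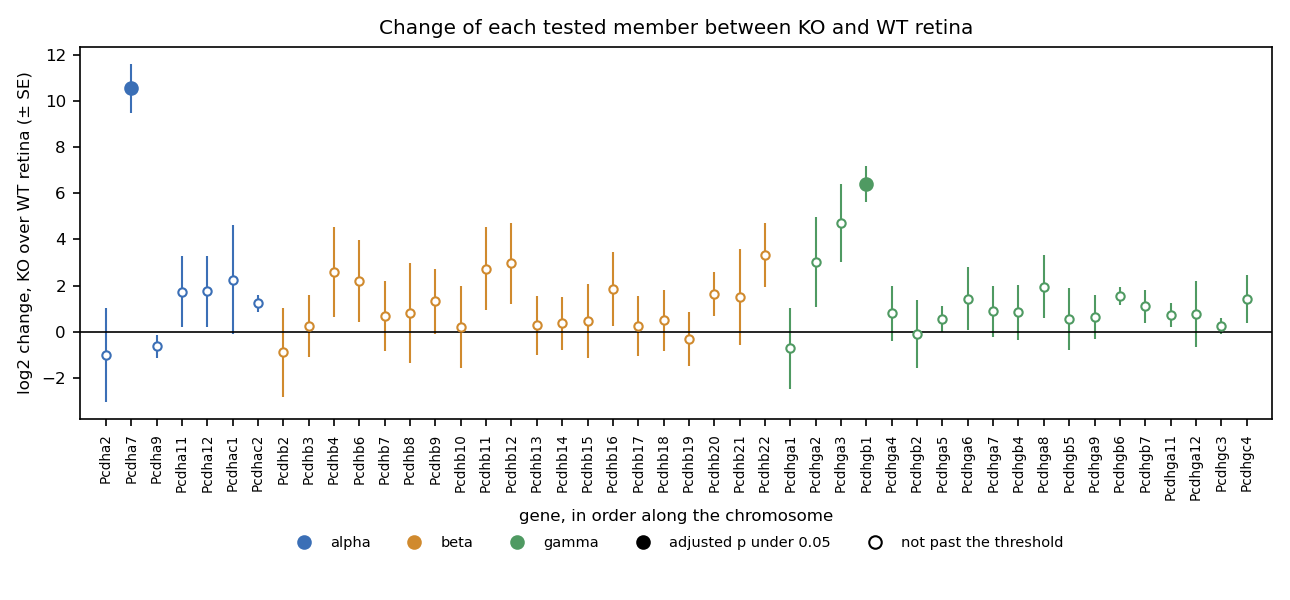
Log2 change in KO over WT retina with its standard error for the 46 members tested, in chromosomal order and coloured by cluster, filled where the adjusted p is under 0.05. Pcdha7 at 10.54 and Pcdhgb1 at 6.40 stand above the rest, most of whose bars reach or cross 0. The fitted value of Pcdha7 depends on the prior count, since WT retina had 0 reads.

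The 10 members not tested in retina were Pcdha1, Pcdha3, Pcdha4, Pcdha5, Pcdha6, Pcdha8, Pcdhb1, Pcdhb5, Pcdhga10 and Pcdhgc5. Pcdha6 had 202, 296, 2, 0 and 0 counts in KO retina, against 5, 0, 0 and 4 in WT retina. Pcdha8 had 135, 27, 4, 97 and 1 counts in KO retina, against 2, 0, 7 and 0 in WT retina. Both were read in KO libraries alone, though not in all of them. Pcdhb5 was read in WT libraries 3 and 4, with 290 and 212 counts, and in KO library 1, with 159.

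Other readouts moved with the same groups of retina libraries. Of the marker lists, 4 of 10 cone genes and 7 of 12 bipolar genes were higher in KO retina and 6 of 15 rod genes were lower. The bipolar markers summed to 1940 to 3459 CPM in KO retina and 508 to 1123 CPM in WT retina, and the cone markers to 2705 to 6477 CPM in KO and 797 to 1836 CPM in WT. The rod markers summed to 135180.0 to 167689 CPM in KO and 170269 to 250267 CPM in WT. None of these 3 sums overlapped between the genotypes. The sum of the monocyte, border macrophage and granulocyte markers did not either, at 16.3 to 18.97 CPM in KO and 0.224 to 5.10 CPM in WT, with 0 of 2 tested genes called. Most of that sum was 1 gene, Lyve1, with means of 17.4 CPM in KO and 2.27 CPM in WT. Of the 10 genes listed, 5 were at 0 in every KO retina library and 5 in every WT one. Of the 10 Mueller glia genes 0 were called, with a positive log2 change in all 10 and an unadjusted p under 0.05 in 5. Of the 10 endothelial and pericyte genes 1 was called (Tie1, an endothelial receptor, 10.1 CPM in KO and 0 in WT), and the median log2 change was 1.25. The amacrine markers, of the cells best known for these genes, summed to 283 to 415 CPM in KO retina and 84.8 to 221 CPM in WT retina, with 1 of 9 tested genes higher (Slc6a9, the glycine transporter, log2 change 1.16 ± 0.22, adjusted p 0.038), and 2 of the 12 listed at 0 in every KO retina library and 1 in every WT one. The ganglion cell markers summed to 12.2 to 22.2 CPM in KO and 5.46 to 27.6 CPM in WT, with 0 of 7 called. The part of these markers and of the library's count of detected genes in the protocadherin values was not tested, since the 2 covariate fits cannot tell those terms from genotype.

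Microglia of KO and WT mice did not differ past the threshold in any member. Of the 17 members tested (1 alpha, 4 beta and 12 gamma), edgeR called 0, beside 0.115% of all genes, and 0 had an unadjusted p under 0.05. Limma voom called 0 and DESeq2 called 2, Pcdhb10 and Pcdhb17. How many of all genes these tools called is not given here. Pcdhb10 had 225 and 219 counts in KO microglia libraries 1 and 5 and 0 in the other 7 microglia libraries, and Pcdhb17 had 92, 0, 124 and 146 counts in WT microglia and at most 3 in KO. None of the 17 had ranges without overlap, where 3.29% of all genes did. The authors' deposited table lists 16 members in microglia, none with an adjusted p under 0.05.

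Pcdhgb2, a gamma-B gene, was the steadiest member of the microglia. It had 23.1, 10.9, 13.9, 10.7 and 11.7 CPM in KO microglia and 8.99, 16.03, 11.9 and 16.3 CPM in WT microglia, so it was read in all 9 libraries with overlapping ranges, and its log2 change of 0.08 ± 0.36 had an adjusted p of 0.999. Per kilobase of own exon it was the highest member in both microglia groups, at 5.09 CPM in KO and 4.82 CPM in WT. The next in WT microglia were Pcdhga4 at 3.33, Pcdhgb4 at 2.41 and Pcdhga2 at 2.26 CPM per kilobase. Pcdhgb6 and Pcdhgb7 were read in 8 of the 9 microglia libraries, with KO library 4 at 1 and 0 counts, and Pcdhga5 also in 8, with KO library 3 at 0. The largest fitted changes among the 17 tested were those of Pcdhac2, at -1.25 ± 2.15 on the log2 scale, and Pcdhga11, at 1.24 ± 2.02, both well within their errors.

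Whether the difference between genotypes was larger in retina than in microglia was tested as the interaction over all 18 libraries. Of the 46 members tested, edgeR called 0, beside 0.469% of all genes, and the edgeR p before adjustment was under 0.05 in 13. DESeq2 called 6 members and limma voom 2, and how many of all genes they called is not given here. The smallest p belonged to Pcdhgb1, with an interaction of 5.07 ± 1.16 on the log2 scale and an adjusted p of 0.0729. By edgeR with all libraries no member was thus shown to differ in its genotype change between the fractions. Without WT retina library 2 the test called 1 member, Pcdhga2, and without KO microglia library 5 it called 1, Pcdhgb1.

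Retina and microglia of the same genotype were compared to see where the genes were read. In WT, 23 members were tested, and Pcdha9 was higher in retina, beside 40.2% of all genes called (17.4% higher). It had 263, 199, 216 and 189 counts in WT retina, against 1, 0, 0 and 0 in WT microglia, a ratio of 779 with a counting interval of 139 to 30813 (adjusted p 0.000336). The count of members called was 3 without WT retina library 2 (Pcdhb19 and Pcdhga2 as well) or WT microglia library 4 (Pcdhb19 and Pcdhga9 as well), and 2 without WT microglia library 1 or 2 (Pcdhb19 as well). The ranges of 3 of the 23 (13%) did not overlap, all with retina higher (Pcdha9, Pcdhga11 and Pcdhgc3), beside 49.5% of all genes (20.7% with retina higher). In KO, 36 members were tested, of which 13 were higher in retina and 1 lower, or 38.9%, beside 44.9% of all genes called (21.2% higher and 23.7% lower). The ranges of 18 of the 36 (50%) did not overlap, 17 with retina higher and 1 lower, beside 45.2% of all genes (22.4% higher and 22.9% lower). Many members passed the count filter only through retina, the fraction where they were read. The counts of members higher and lower in both genotypes therefore describe the tested members and not the family.

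The 13 members higher in KO retina than in KO microglia were 4 alpha, 7 beta and 2 gamma genes. Pcdhb11, Pcdhb7, Pcdhb12 and Pcdhb19 led the beta genes. Pcdhb11 had 540, 661, 266, 468 and 403 counts in KO retina, against 1, 0, 0, 0 and 1 in KO microglia, a ratio of 1014 with a counting interval of 280.4 to 8379. Pcdhb12 had 58, 52, 93, 179 and 128 counts in KO retina, against 0 in every KO microglia library, at least 147-fold higher. Pcdhb7 (log2 change 7.27 ± 0.86), Pcdhb15, Pcdhb16, Pcdhb17 and Pcdhb19 had at most 5 counts in any KO microglia library. All these beta genes were read in all 5 KO retina libraries and in no KO microglia library.

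Of the alpha genes, Pcdha9 was at least 207-fold higher in KO retina, with 717 counts against 0 in KO microglia, which with the WT libraries makes it read in all 9 retina libraries and in none of the 9 microglia libraries. Pcdha7 (7.53 ± 1.34), Pcdha12 (7.48 ± 1.46) and Pcdhac2 (4.52 ± 1.60) were the others, as log2 changes with their SE. Pcdhac2 had 1, 38, 0, 0 and 169 counts in KO microglia, and its call (adjusted p 0.0416) held only without KO microglia library 3 or 5 when libraries were left out in turn (adjusted p 0.0111 to 0.0835). Of the gamma genes, Pcdhgb1 (3.78 ± 0.88) and Pcdhgc4 (5.54 ± 1.80, adjusted p 0.029) were higher in KO retina. Pcdhgc4 was read in a single KO microglia library, number 5, at 5.61 CPM, without which its log2 change was 12.28. Its call was lost without KO retina library 3 or 4 or KO microglia library 4 (adjusted p at most 0.0547).

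Pcdhgb2 was the member that was lower in KO retina than in KO microglia. It had 7.53, 1.91, 7.64, 4.12 and 1.38 CPM in KO retina, against 23.1, 10.9, 13.9, 10.7 and 11.7 CPM in KO microglia, with no overlap and a log2 change of -1.56 ± 0.56 (SE, adjusted p 0.0428). The call was lost when KO retina library 2, 4 or 5 or KO microglia library 1, 3 or 5 was left out (adjusted p 0.0334 to 0.0892 over the 10 such fits). In WT it had 0.0383, 16.7, 2.24 and 0.0206 CPM in retina and 8.99, 16.03, 11.9 and 16.3 CPM in microglia, with 3 of the 4 retina libraries below all microglia libraries and a log2 change of -1.44 ± 1.62 (adjusted p 0.513).

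The microglia level of the clusters can be set beside that of the neuronal markers in the same sorts. In KO the median microglia sum was 7.02% of the retina sum for alpha, 11.6% for beta and 26.7% for gamma, beside 6.13% for the rod markers, 7.84% for the cone markers, 8.28% for the bipolar markers and 9.02% for the amacrine markers. In WT it was 15.8% for alpha, 30.9% for beta and 63.3% for gamma, beside 5.10% for rod, 17.5% for cone, 18.6% for bipolar and 15.7% for amacrine markers. Alpha was near the cone, bipolar and amacrine values in both genotypes, and beta and, more so, gamma were above them. The sums of the ganglion cell markers, at 260.2% in KO and 277% in WT, and of the horizontal cell markers, at 2517% in KO and 3795% in WT, were higher in microglia than in retina and far above gamma. Each rested mostly on 1 gene in microglia. Tpm3 averaged 714 CPM in KO and 633 CPM in WT microglia, where the horizontal sums had medians of 711 and 631 CPM. Rbpms averaged 34.7 and 35.4 CPM, where the ganglion sums had medians of 47.2 and 43.7 CPM. The part of retinal neuron RNA in the microglia sort in these values was not tested.

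Genes that act with the clusters showed no call between the genotypes of retina. Of 18 regulators, 0 passed in KO against WT retina, with Ctcf, which loops promoters to enhancers, at a log2 change of -0.45 ± 0.16 (adjusted p 0.227) and Stag1, a cohesin subunit, at -0.55 ± 0.25 (adjusted p 0.376). Their median was -0.23. Of 17 partners and effectors tested, 0 passed, with Nckap1 and Cyfip1, subunits of the WAVE complex that the cytoplasmic parts of some protocadherins bind, at 1.35 ± 0.30 (adjusted p 0.0629) and 1.21 ± 0.29 (adjusted p 0.0797). Of 10 non-clustered protocadherins tested, which lie elsewhere in the genome, 0 passed, 8 had positive changes, and the median was 1.60. Pcdh9 had the smallest p of these, at 1.85 ± 0.46 (adjusted p 0.0876), and Pcdh8 followed at 1.58 ± 0.99 (adjusted p 0.563). The summed level of the non-clustered genes was 175 to 259 CPM in KO retina and 40.6 to 135 CPM in WT retina, again with no overlap. In microglia 0 of 18, 0 of 16 and 0 of 3 of these lists passed.

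Between retina and microglia many genes of these lists were called, as were 44.9% of all genes in KO and 40.2% in WT. In KO, 7 of 9 non-clustered protocadherins tested were higher in retina and 0 lower, with Pcdh1, Pcdh19, Pcdh10 and Pcdh8 first by p, and in WT 1 of 5 was higher, Pcdh15, which the hair cells of the ear and photoreceptors use (log2 change 4.09 ± 0.83, adjusted p 0.00518). Of the regulators 3 of 18 were higher and 3 lower in retina in each genotype, a smaller share than over all genes. Smc3, a cohesin subunit, was higher in retina in both, at 1.08 in KO and 1.5 in WT, and Setdb1, a histone methyltransferase, was lower in both, at -1.32 in KO and -2.22 in WT (log2 changes). Of the 17 partners and effectors 6 were higher and 8 lower in KO retina, and 4 higher and 8 lower in WT retina, with Rac1, Cyfip1 and Marcks, which act on the actin cytoskeleton, far lower in retina in both genotypes.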

How the data were processed

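RNA was sequenced from 18 sorted retinal cell samples, in groups that follow the labels' sort and genotype. The authors deposited raw counts per gene for each library, in whole numbers with no normalization. The submitters' processing notes name DRAGEN, STAR 2.7.9a, Subread, featureCounts, edgeR and limma with the build GRCm38, without roles, and whether counting used strand is not given in the sources used here. The authors also deposited a table per genotype comparison with log2 fold changes, log2 mean CPM, a likelihood ratio score and p-values, per the file headers.

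Of 55774 lines, 287 repeated identifiers were dropped. No pair of libraries was identical, and all 18 sample columns were used. The test was edgeR 4.0.16's quasi-likelihood F test, run under R 4.3.3 (filterByExpr by group, TMM scaling, Benjamini-Hochberg over all genes tested, adjusted p under 0.05), a genotype comparison using its own fraction, a fraction comparison its own genotype, and the interaction all libraries. TMM factors over all 18 libraries scale the CPM. A standard error is the log2 change over the square root of F. Exon lengths come from GENCODE M21 (GRCm38), which held all 56 members. Folds against a group without reads use 3 counts over that group as its floor, and ratios on 1 to 3 reads carry 95% exact binomial intervals. Scripts were tested on simulated data. DESeq2 1.42.0, limma 3.58.1 voom, other filters and scalings, covariates, a replicate block and leaving out each library were tried as alternatives. No sequence of the members is shown.

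The members, lists and tests were chosen with earlier results of these data known. Genes named are the members past the threshold, the C-type genes, the 3 highest per length of each cluster in WT retina, members at 0 in all libraries, and up to 4 of each other list by p. Other members named, among them Pcdhgb6, Pcdhga2, Pcdhga4, Pcdhga5, Pcdhb10, Pcdhb1, Pcdhb5, Pcdha6 and Pcdha8, were chosen after their values were seen.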

Additional observations from a re-analysis of the deposited data

Results flagged for a closer look

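In a group of 4 or 5 libraries, a library was marked when its gap to the nearest other library exceeded Dixon's 95% critical value as a share of the group's range. Of 104 groups of values tested, 24 were marked. The 104 groups cover the cluster sums, the numbers of members read and the levels of 21 named members. The critical value marks about 1 in 20 groups only where values are normally distributed, and many member levels had no reads. A group is marked whenever a single library has any reads, as with Pcdha9 in WT microglia library 1 on 1 read. The number of marks therefore cannot be set against chance. All 24 were levels of single members, and none was a cluster sum or a number of members read.

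In KO microglia 10 levels were marked. Library 1 stood apart for Pcdhgb2 at 23.1 CPM, Pcdhb16 at 0.125 CPM and Pcdhb15 at 0.04995 CPM. Library 2 stood apart for Pcdhb19 at 0.0553 CPM, Pcdha7 at 0.111 CPM and Pcdha12 at 0.332 CPM, all on a few reads. Library 4 stood apart for Pcdhac1 at 0.0338 CPM. Library 5 stood apart for Pcdhgc4 at 5.61 CPM, Pcdhac2 at 4.47 CPM and Pcdhgb1 at 1.35 CPM.

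In WT retina 7 levels were marked. Library 1 stood apart for Pcdhb16 at 7.46 CPM. Library 2 stood apart for Pcdhgb2 at 16.7 CPM and Pcdhb11 at 6.55 CPM. Library 3 stood apart for Pcdhb7 at 14.6 CPM and Pcdhac1 at 4.82 CPM. Library 4 stood apart for Pcdhb12 at 1.197 CPM and Pcdhgc5 at 0.0826 CPM.

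In WT microglia 7 levels were marked. Library 1 stood apart for Pcdha9 at 0.0240 CPM, which is 1 read. Library 2 stood apart for Pcdhac1 at 3.95 CPM, Pcdhga11 at 2.89 CPM and Pcdhb12 at 0.981 CPM. Library 3 stood apart for Pcdhb16 at 4.28 CPM, Pcdhb11 at 4.25 CPM and Pcdhgc5 at 3.90 CPM. No level in KO retina was marked, and in all 24 cases the library that stood apart was the highest of its group.

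Pcdhgb8, a gamma-B row annotated as a polymorphic pseudogene and so outside the 56 genes, reached 161 counts and had at least 20 counts in 8 of the 18 libraries.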

How the results depend on the processing

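The cluster sums moved by less than 1 SD under other scalings and without any single library, but these SDs are wide in microglia, where the beta mean of KO was 12.9 CPM without library 1 (23.6 with all) and the alpha mean of WT 2.59 CPM without library 4 (4.23 with all), and 8 of the 9 highest members per length stayed when all exon bases were used. The counts of members called were less stable. In KO against WT retina, 2 members became 7 with DESeq2 and 0 with the rod level, the number of genes with a count or the replicate number (replicate block) added, under which 0, 2 and 0 of all genes were called, and 2 to 4 with a library left out. Pcdha7 (adjusted p 0.0155 to 0.0361) and Pcdhgb1 (0.0146 to 0.036) passed in all 9 fits without a library. With the rod level the log2 change was -0.17 for Pcdhgc3 and -12.96 for Pcdhac1. Over all alternatives the log2 change of Pcdhgb1 in retina was 6.13 to 6.71 and that of Pcdha7 8.15 to 10.7. In KO against WT microglia, DESeq2 called 2. For the interaction DESeq2 called 6, limma voom 2 and fits without a library 0 to 1. In WT retina against WT microglia, 1 member became 3 with no filter, 11 with DESeq2, 7 with limma voom and 1 to 3 without a library. In KO retina against KO microglia, 14 became 23 with no filter, 27 with DESeq2, 28 with limma voom, 19 with the replicate block and 11 to 20 without a library. Except for the retina fits with an added term, the number of all genes called in these alternatives is not given here. These counts therefore do not show whether members moved more than genes in general. The causes were not tested. At 1, 5 and 100 counts, marks added after seeing the data, the mean number of members read was 50.4, 45.6 and 37.6 in KO retina, against 37.5 and 24 at 1 and 100 in WT retina.

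Whether same-numbered libraries came from the same animal was not settled, and the numbers were not used as pairs. Same-numbered retina and microglia libraries had correlations of -0.034 to 0.056 over 9169 genes, and same-numbered KO and WT libraries -0.111 to 0.0884. Low correlations between different sorted cells cannot exclude pairing, and the library numbered 1 in each group had 0 CPM over the Y-linked genes. Depth limits single members: 3 counts were 0.0574 to 0.102 CPM.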
